A study of Mus musculus with 4 samples.

Results

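Bone morphogenetic proteins (BMPs) are secreted ligands of the TGFβ superfamily. They signal through pairs of type I receptors, which include those encoded by Bmpr1a and Bmpr1b, and type II receptors such as that encoded by Bmpr2. The activated receptors phosphorylate SMAD proteins, which enter the nucleus with SMAD4 and raise target genes, of which the Id genes are best known. Secreted antagonists bind the ligands outside the cell and keep them from the receptors. Meningeal fibroblasts are a known source of BMP ligands for the developing brain.

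The 10 genes examined here were the ligands Bmp4, Bmp5, Bmp6 and Bmp7, the receptors Bmpr1a, Bmpr1b and Bmpr2, and the antagonists Bmper, Chrdl1 and Grem1. They were chosen by name, as 10 of the 33696 gene features counted, and a list of 54 other BMP pathway genes was measured beside them. Nuclei came from mouse brain 21 days after photothrombotic (PT) injury, a focal cortical lesion that light causes by activating a dye in the blood. Mice labelled wild type (WT) were the controls, and mice labelled Col1a2(creER); Cxcl12(flox), here Cxcl12-cKO, carried a floxed Cxcl12 gene and a tamoxifen-inducible Cre recombinase under the Col1a2 promoter, which is active in fibroblasts. Both groups were adult mice with the same injury. Each genotype was 1 library pooled from 1 male and 1 female mouse, with lesion and parenchyma (perilesional cortex) nuclei tagged apart and mixed at 75% and 25%. The study asked what the loss of the chemokine gene Cxcl12 from fibroblasts changes in the chronic lesion. With 1 library per genotype no test between genotypes was possible, so differences are given with their counting intervals and with the values of both mice, told apart by Xist and Y-linked transcripts.

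The filter kept 21743 of 23489 barcodes, with a median of 2962 to 2975 unique molecular identifiers (UMIs, counts of single transcripts) per nucleus in the 2 lesion matrices and 15915 to 16648 in the 2 parenchyma matrices. In the 4 matrices, 9.75% to 14.3% of nuclei had both Xist and Y-linked UMIs, and these nuclei entered the pooled values but not those of single mice. The libraries shared 47 barcode sequences. The targeted gene went against the label. Levels are given as CPM, the UMIs of a gene per 1000000 UMIs of all genes in the same nuclei. In lesional fibroblast-like nuclei, the level of Cxcl12 was 107 CPM (95% interval 102 to 113) where the label was control, and 217 CPM (209 to 224) where it was Cxcl12-cKO. No source used here says whether 3′ counting reads the deleted stretch. The libraries are therefore named by their labels throughout, as control-labelled and Cxcl12-cKO-labelled, and paired values give the control-labelled library first. Clusters were named from marker genes, and the 10 genes, the pathway list and Cxcl12 took no part in clustering. All 6 fibroblast markers were detected in lesional fibroblast-like nuclei, with summed levels of 4048 and 3581 CPM. All intervals are 95% intervals that cover counting error alone, not the difference between mice.

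Promoter sequences are shown for a ligand, an antagonist and a receptor, chosen after their values were seen, since Bmp6 and Bmper differed in opposite directions between fibroblast states and Bmpr1a was at a like level in each. They are RefSeq sequences of GRCm38.p6, from 250 bases before to 50 bases after the annotated start, on the strand of the gene, while the counts rest on GRCm39. Bmp6 lies at chr13:38345466-38345765 (plus strand), Bmper at chr9:23222826-23223125 (plus strand) and Bmpr1a at chr14:34502497-34502796 (minus strand). Capitals mark GGCGCC, a GC-rich sequence to which SMAD1 and SMAD5 are known to bind and which reads the same on both strands.
Bmp6: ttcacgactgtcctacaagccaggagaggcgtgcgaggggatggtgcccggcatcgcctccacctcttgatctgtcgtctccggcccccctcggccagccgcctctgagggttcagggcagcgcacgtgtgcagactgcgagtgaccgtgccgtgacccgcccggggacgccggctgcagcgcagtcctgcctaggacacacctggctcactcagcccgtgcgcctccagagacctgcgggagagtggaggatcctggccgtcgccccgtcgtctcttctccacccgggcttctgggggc
Bmper: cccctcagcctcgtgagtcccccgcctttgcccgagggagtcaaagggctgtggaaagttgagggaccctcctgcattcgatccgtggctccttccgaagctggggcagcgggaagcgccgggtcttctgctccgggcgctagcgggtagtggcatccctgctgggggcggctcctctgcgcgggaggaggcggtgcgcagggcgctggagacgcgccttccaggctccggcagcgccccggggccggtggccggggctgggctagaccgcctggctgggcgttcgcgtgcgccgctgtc
Bmpr1a: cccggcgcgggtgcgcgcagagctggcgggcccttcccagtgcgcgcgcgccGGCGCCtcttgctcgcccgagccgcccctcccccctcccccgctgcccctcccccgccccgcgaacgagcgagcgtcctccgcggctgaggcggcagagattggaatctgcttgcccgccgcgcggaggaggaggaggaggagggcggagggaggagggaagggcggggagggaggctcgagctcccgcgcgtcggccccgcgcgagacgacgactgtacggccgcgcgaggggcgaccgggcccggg
GGCGCC stood in 1 of these 3 windows, that of Bmpr1a. Of the 8 members with a promoter in the table, 3 held it (Bmpr1a, Bmpr2 and Grem1), against 3898 of 32851 promoters (11.9%). The members are counted here as genes and the background as single promoters. Bmpr1b had 3 promoters, none with the sequence, and each other member had 1. GC content was 69.3% for Bmp6, 72.7% for Bmper and 79.3% for Bmpr1a, against a median of 52.7%. No entry was found for Bmp7 and Chrdl1.

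Fibroblast-like nuclei held most of the BMP ligand transcripts of the lesion. They were 49.3% of lesional nuclei in the control-labelled library (3994 of 8095) and 50.4% in the Cxcl12-cKO-labelled library (3997 of 7933), with 41.2% and 46.6% of the lesional UMIs. Of the UMIs of the 4 ligands, 86.5% and 86.6% were in these nuclei. The receptors were spread more widely, with 48.4% and 52.3% of their UMIs in fibroblast-like nuclei, close to the share of all UMIs. The antagonists lay between, at 67.7% and 76.1%. In the parenchyma, fibroblast-like nuclei were 1.77% and 1.76% of nuclei. They still held 50.1% and 47.0% of the ligand UMIs there, and 1.04% and 0.917% of the receptor UMIs. The 6 fibroblast markers summed to 1171 and 1149 CPM in these parenchymal nuclei, below the lesional 4048 and 3581 CPM.

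**Figure D1:**
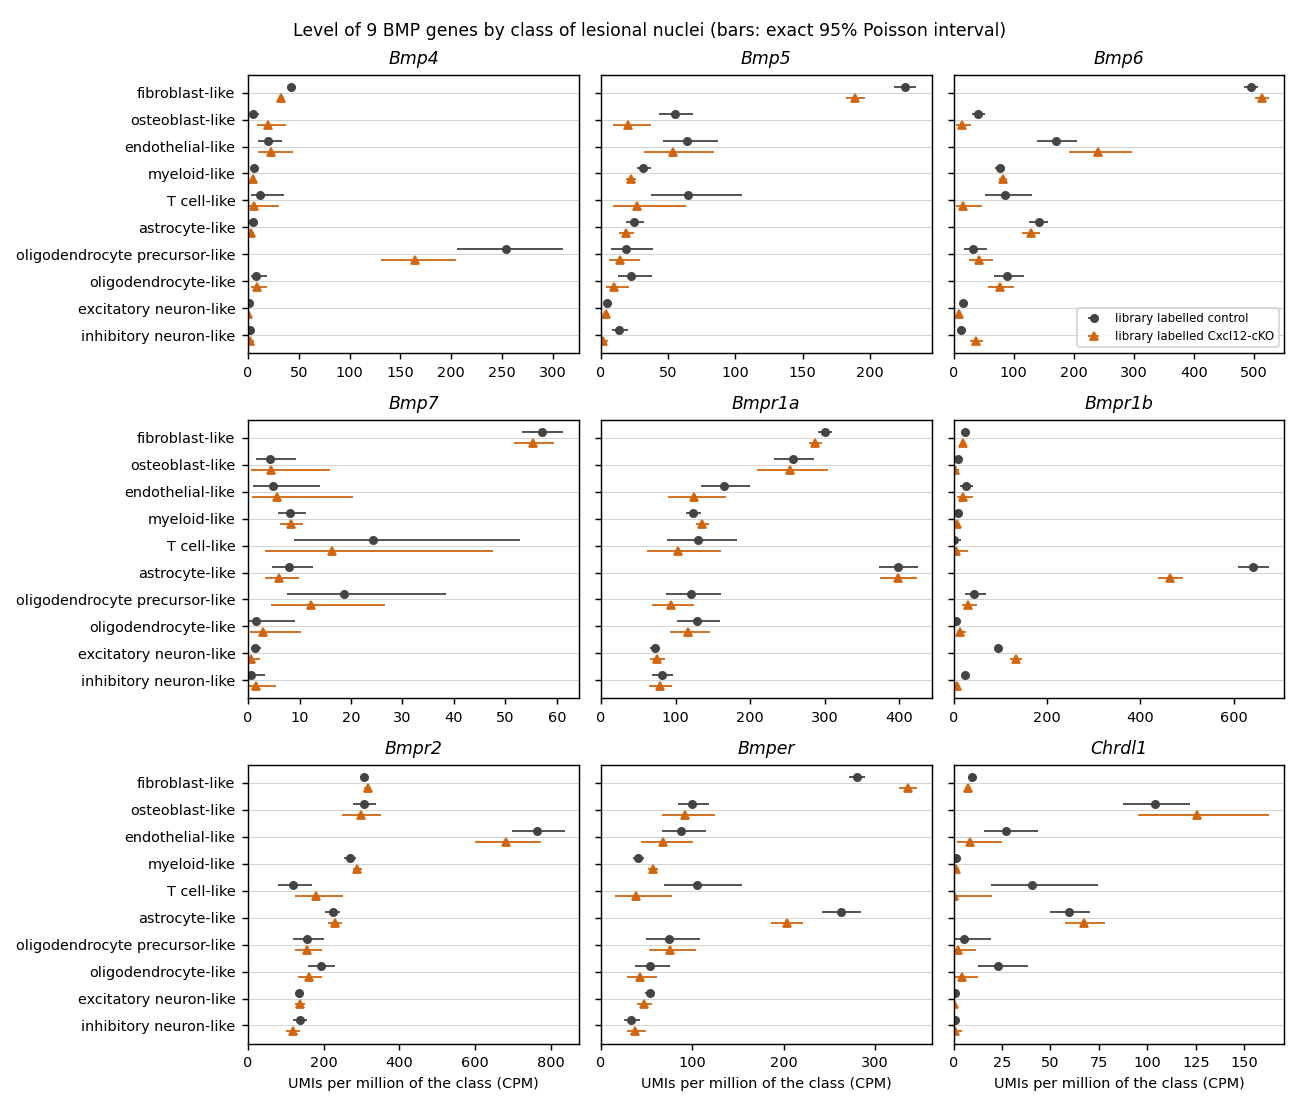
Levels of 9 members (all but Grem1) in 10 classes of lesional nuclei, in CPM, as points for each library with bars for exact 95% Poisson intervals. Among the classes drawn, which leave out the few ependymal-like nuclei, Bmp5, Bmp6 and Bmp7 sit highest in fibroblast-like nuclei, unlike Bmp4, which is higher in oligodendrocyte-precursor-like nuclei (254 and 165 CPM), while Bmpr1b is highest in astrocyte-like nuclei (641 and 463 CPM).

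Among the ligands, Bmp6, a member of the BMP5 to BMP7 subgroup that also acts in iron control, was at 495 CPM (483 to 507) and 513 CPM (501 to 524) in lesional fibroblast-like nuclei. These nuclei held 86.3% and 85.6% of its lesional UMIs. Endothelial-like nuclei followed with 170 and 241 CPM and astrocyte-like nuclei with 141 and 128 CPM. Ependymal-like nuclei were at 304 and 646 CPM, but on 10 and 21 nuclei. Bmp5, of the same subgroup, was at 226 CPM (218 to 234) and 189 CPM (182 to 196) in fibroblast-like nuclei, which held 88.2% and 90.9% of its UMIs. Each other lesional class was lower, with endothelial-like nuclei at 64.1 and 53.8 CPM, osteoblast-like nuclei at 55.1 and 19.8 CPM, myeloid-like nuclei at 31.6 and 22 CPM, astrocyte-like nuclei at 24.7 and 18.3 CPM and excitatory-neuron-like nuclei at 4.48 and 3.51 CPM. Bmp7, the last of this subgroup, was at 57.1 CPM (53.2 to 61.2) and 55.4 CPM (51.6 to 59.4), with 89.5% and 89.1% of its UMIs in fibroblast-like nuclei.

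Bmp4, which belongs with Bmp2 to another subgroup and is known to direct oligodendrocyte precursors toward astrocyte fates, was highest in another class. It was at 41.8 CPM (38.5 to 45.4) and 32.3 CPM (29.5 to 35.4) in fibroblast-like nuclei, and at 254 CPM (205 to 310) and 165 CPM (131 to 205) in oligodendrocyte-precursor-like nuclei. The intervals of these classes did not overlap in either library. The precursor-like nuclei were few, 76 and 101, so that they held 12.7% and 13.1% of the lesional Bmp4 UMIs, against 77.3% and 75.2% in fibroblast-like nuclei. Excitatory-neuron-like nuclei, at 0.79 and 0.32 CPM, were at the low end.

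Low ligand levels outside fibroblast-like nuclei came with transcripts of other fibroblast genes. The summed level of the 6 fibroblast markers was 1131 and 768 CPM in myeloid-like, 864 and 337 CPM in astrocyte-like, 1179 and 624 CPM in T-cell-like and 149 and 88.1 CPM in lesional excitatory-neuron-like nuclei. Endothelial-like nuclei of the lesion stood above these classes in the fibroblast markers, at 2129 and 1356 CPM. T-cell-like nuclei had 16 and 5 UMIs of Bmp5 and 21 and 3 of Bmp6, too few to rank. None of the 6 markers was at 0 UMIs in any of those classes. The part of free RNA and of mixed nuclei in these levels was not tested.

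Of the type I receptors, Bmpr1a was broad and Bmpr1b was restricted. Levels of Bmpr1a were 301 and 287 CPM in fibroblast-like nuclei of the lesion, 398 and 398 CPM in astrocyte-like nuclei, 257 and 253 CPM in osteoblast-like nuclei and 72.1 and 75.6 CPM in excitatory-neuron-like nuclei. Bmpr1b was at 641 CPM (608 to 675) and 463 CPM (437 to 491) in lesional astrocyte-like nuclei, which held 55.2% and 59.3% of its lesional UMIs although they were 527 and 519 nuclei. It was at 94.6 and 133 CPM in excitatory-neuron-like nuclei and at 23.8 and 19.4 CPM in fibroblast-like nuclei. In the parenchyma, excitatory-neuron-like nuclei held 90.6% and 89.1% of the Bmpr1b UMIs, at 63.4 and 68.4 CPM, since they were 2191 of 2877 and 2078 of 2838 nuclei.

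The type II receptor gene Bmpr2, whose loss in endothelium is known from pulmonary arterial hypertension, was highest in endothelial-like nuclei, at 765 CPM (698 to 837) and 682 CPM (599 to 774). Fibroblast-like nuclei were at 306 and 316 CPM, osteoblast-like nuclei at 307 and 297 CPM, myeloid-like nuclei at 269 and 289 CPM and astrocyte-like nuclei at 223 and 229 CPM. The osteoblast-like value lay within the counting interval of the fibroblast-like value in the control-labelled library, 296 to 315 CPM, and these neighbours in the order did not differ beyond their error. Excitatory-neuron-like nuclei were at 134 and 138 CPM and inhibitory-neuron-like nuclei at 137 and 118 CPM. No cluster was named from the markers of mural cells (pericytes and smooth muscle). In lesional endothelial-like nuclei the mural markers summed to 1203 and 894 CPM, beside 3611 and 4146 CPM of endothelial markers. The part of mural cells in the Bmpr2 and Bmp6 levels of this class was not tested.

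The 3 antagonist genes each had a pattern of their own. Bmper encodes a secreted chordin-family protein that can restrain or aid BMP signalling. It was at 280 CPM (271 to 289) and 336 CPM (326 to 345) in lesional fibroblast-like nuclei, which held 71.5% and 79.0% of its UMIs, and at 263 and 203 CPM in astrocyte-like nuclei. Chrdl1, which encodes a chordin-like antagonist that astrocytes are known to secrete, was at 104 and 125 CPM in osteoblast-like nuclei on 145 and 57 UMIs, 59.5 and 67.3 CPM in astrocyte-like nuclei and 9.35 and 7.30 CPM in fibroblast-like nuclei. Grem1, which encodes the antagonist gremlin 1, was scarce, with 34 and 27 UMIs in the whole lesion and 4 and 4 of them in fibroblast-like nuclei. In the parenchyma it had 102 and 95 UMIs in excitatory-neuron-like nuclei, at 2.57 and 2.44 CPM, and stood at 3.11 and 4.12 CPM in inhibitory-neuron-like nuclei.

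Next, lesional fibroblast-like nuclei were divided into 5 states, clustered without the 10 genes. State 0 matched the late inner-lesion marker list and state 2 the leptomeningeal list, while the other 3 matched no list. States 0, 1 and 2 held 29.5%, 27.9% and 31.7% of the nuclei in the control-labelled library and 38.1%, 19.0% and 29.3% in the Cxcl12-cKO-labelled library. State 1 (leading genes Hs3st1, Slco4a1 and Ccn3), state 3 (Sh3gl3 and Nnat; 57 and 69 nuclei) and state 4 (Dcdc2a, Col4a6, Col13a1 and Kl; 378 and 473 nuclei) were left unnamed. The ligands Bmp6 and Bmp7 and the antagonist Bmper took opposite ends of these states, in both libraries. The antagonist Chrdl1 was highest in the late-inner-like state, where Bmp6 and Bmp7 were lowest. State 3 held 2 and 1 UMIs of Chrdl1, too few to place it there. The values are given as a description, since the same nuclei made the states.

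Bmp6 was at 1082 CPM (1049 to 1116) and 1103 CPM (1070 to 1138) in the leptomeningeal-like state and 92.4 CPM (83.4 to 102) and 126 CPM (117 to 135) in the late-inner-like state. The small state 3 was higher still, at 2530 and 3088 CPM, and state 4 was at 956 and 749 CPM. Bmp7 followed the same order, with 127 and 130 CPM in the leptomeningeal-like state, 2.87 and 3.85 CPM in the late-inner-like state, and 338 and 352 CPM in state 3. The leptomeningeal-like state alone held 58.9% and 55.8% of the fibroblast Bmp6 UMIs. Bmp5 took another order, highest in state 1 at 305 and 293 CPM and in the leptomeningeal-like state at 278 and 272 CPM, and lowest in state 4 at 62.4 and 71.0 CPM. Bmp4 was highest in state 3, at 121 CPM (73.8 to 187) and 140 CPM (96.2 to 196) on 20 and 33 UMIs, and was at 67.2 and 49.9 CPM in the leptomeningeal-like state, 47.0 and 46.3 CPM in state 1 and 16.5 and 14.6 CPM in the late-inner-like state. As log2 ratios of the leptomeningeal-like over the late-inner-like state, the ligands stood at 3.55 and 3.13 for Bmp6, 5.41 and 5.05 for Bmp7, 0.95 and 1.21 for Bmp5 and 2.02 and 1.77 for Bmp4.

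Bmper ran the other way. It was at 520 CPM (498 to 542) and 603 CPM (583 to 623) in the late-inner-like state, 296 and 258 CPM in state 1 and 47.6 and 45.9 CPM in the leptomeningeal-like state, a log2 ratio of the leptomeningeal-like over the late-inner-like state of −3.45 and −3.71. The late-inner-like state held 56.2% and 74.5% of the fibroblast Bmper UMIs. Chrdl1 was nearly confined to it within the fibroblast class, with 119 of 129 and 100 of 105 UMIs (92.2% and 95.2%). Bmpr1b, low in fibroblasts, was also highest there, at 38.0 and 34.7 CPM, and the late-inner-like state held 48.3% and 74.2% of its fibroblast UMIs.

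Of the broad receptors, Bmpr1a varied less by state than Bmpr2. Bmpr1a ranged from 276 to 332 CPM over the 5 states in the control-labelled library and from 261 to 326 CPM in the Cxcl12-cKO-labelled library. Bmpr2 ranged from 241 to 367 CPM and from 182 to 384 CPM, with the lowest values in state 3, which had the fewest nuclei. In the Cxcl12-cKO-labelled library Bmpr2 was at 182 CPM (132 to 245) in state 3 and 384 CPM (354 to 417) in state 4, intervals that did not overlap. The states thus differed in ligand and antagonist transcripts while Bmpr1a differed little. With a finer clustering at resolution 0.6, at which the leptomeningeal list picked out a smaller cluster of 248 and 276 nuclei, the log2 ratios were 4.42 and 4.31 for Bmp6 and −3.90 and −5.75 for Bmper.

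**Figure D2:**
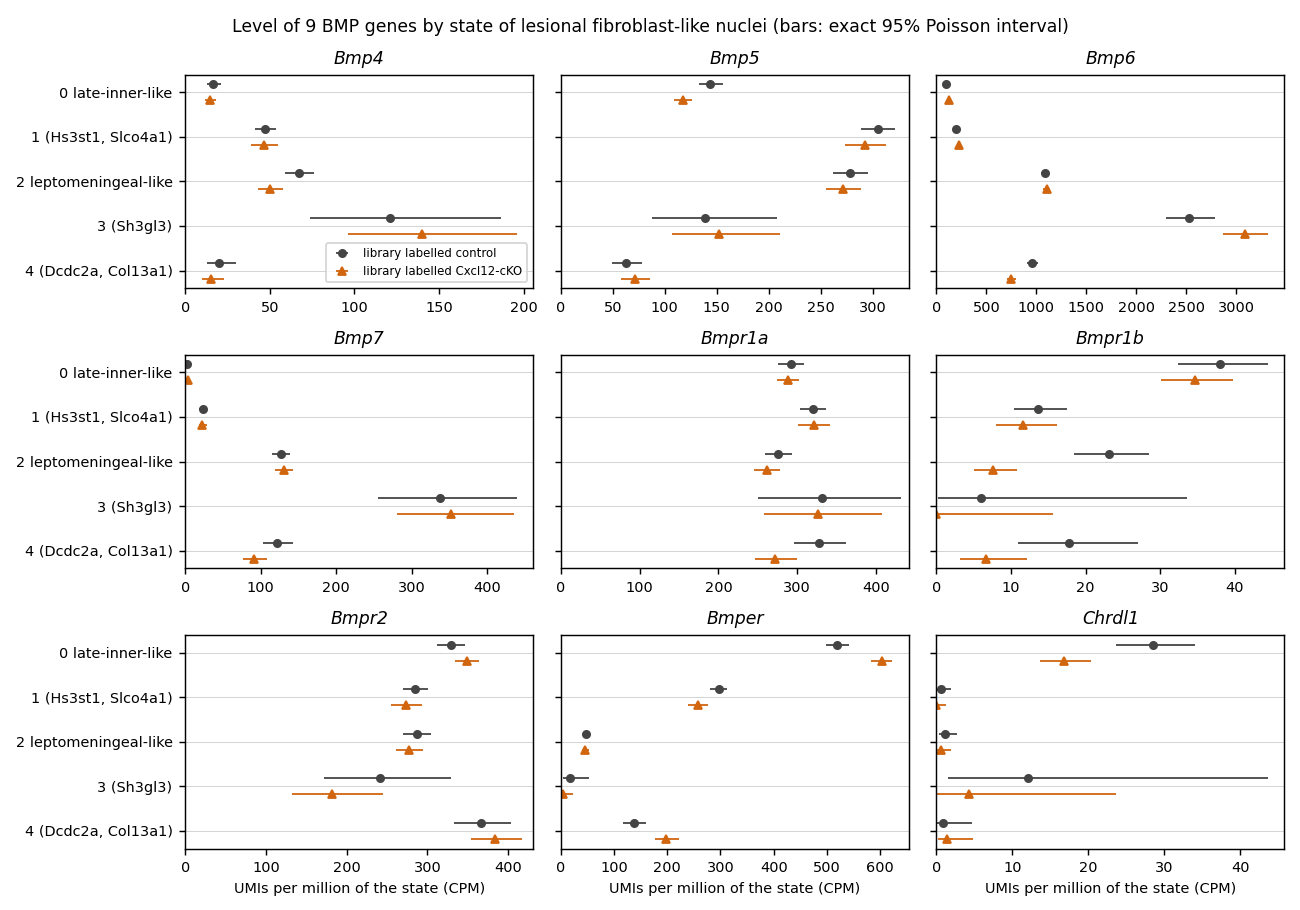
Levels of 9 members (all but Grem1) in the 5 states of lesional fibroblast-like nuclei, in CPM, as points for each library with bars for exact 95% Poisson intervals. Bmp6 rises from 92.4 and 126 CPM in the late-inner-like state to 1082 and 1103 CPM in the leptomeningeal-like state, and Bmper falls from 520 and 603 CPM to 47.6 and 45.9 CPM.

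In lesional fibroblast-like nuclei, the levels of the members differed little between the libraries. A gene counted as past the threshold when its ratio exceeded 1.5-fold and it had at least 50 UMIs over both libraries. In this class 858 of 14238 genes (6.03%) were past it, 3.43% higher and 2.60% lower in the Cxcl12-cKO-labelled library. None of the 9 members with enough UMIs was past it. Grem1, with 8 UMIs, was not examined. The log2 ratio of Cxcl12-cKO over control was above 0 for 3 members and below 0 for 6, with a median of −0.07, against 0.00 over all genes. The mice of one library lay wholly above or below those of the other for 5 of the 9 members, and for 41.8% of all genes examined, so this count was close to the background.

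For Bmp4, the female and male control mice were at 43.9 and 34.8 CPM and the female and male Cxcl12-cKO mice at 28.4 and 31.2 CPM. Both mice labelled Cxcl12-cKO lay below both controls, and the pooled log2 ratio was −0.37 (−0.55 to −0.19), with −0.63 between the females, past the threshold, and −0.16 between the males. For Bmp5, the control mice were at 251 and 205 CPM and the Cxcl12-cKO mice at 191 and 183 CPM. The groups did not overlap, with a pooled log2 ratio of −0.26 (−0.33 to −0.18). For Bmp6, the control mice were at 487 and 489 CPM and the Cxcl12-cKO mice at 554 and 469 CPM, so that the controls lay between the other mice. Its pooled log2 ratio was 0.05 (0.00 to 0.10). Bmp7 was at 59.8 and 51.7 CPM in the control mice and at 66.3 and 47.0 CPM in the Cxcl12-cKO mice. These overlapped, and its pooled log2 ratio was −0.04 (−0.19 to 0.10). The 4 ligands summed gave −0.06 (−0.09 to −0.02).

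Levels of Bmpr1a and Bmpr2 were close between the libraries. Bmpr1a was at 307 and 296 CPM in the female and male control mice and 294 and 276 CPM in the Cxcl12-cKO mice, with a pooled log2 ratio of −0.07 (−0.13 to −0.00). Bmpr2 was at 303 and 310 CPM in the control mice and 327 and 312 CPM in the Cxcl12-cKO mice, with a pooled log2 ratio of 0.05 (−0.01 to 0.11). The mice did not overlap for either gene, but the gap between the libraries was smaller than the spread within each. Bmpr1b was at 20.1 and 23.1 CPM in the control mice and 13.8 and 22.9 CPM in the Cxcl12-cKO mice, and the groups overlapped, with a pooled log2 ratio of −0.30 (−0.53 to −0.06). The 3 receptors summed gave −0.02 (−0.06 to 0.03).

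Bmper was the member with the highest pooled log2 ratio, 0.26 (0.20 to 0.32), and this rested on 1 mouse. The control mice were at 258 and 288 CPM and the Cxcl12-cKO mice at 265 and 387 CPM, so that the male labelled Cxcl12-cKO stood apart while the female lay among the controls. The log2 ratio was 0.04 between the females and 0.42 between the males. Chrdl1 was at 10.2 and 8.43 CPM in the control mice and at 5.92 and 7.92 CPM in the Cxcl12-cKO mice. Its pooled log2 ratio of −0.36 (−0.74 to 0.03) rested on 129 and 105 UMIs, and between the females it was −0.77, past the threshold. The antagonists summed gave 0.25 (0.19 to 0.31), and 0.06 once the mix of states was held at that of the control-labelled library.

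**Figure D3:**
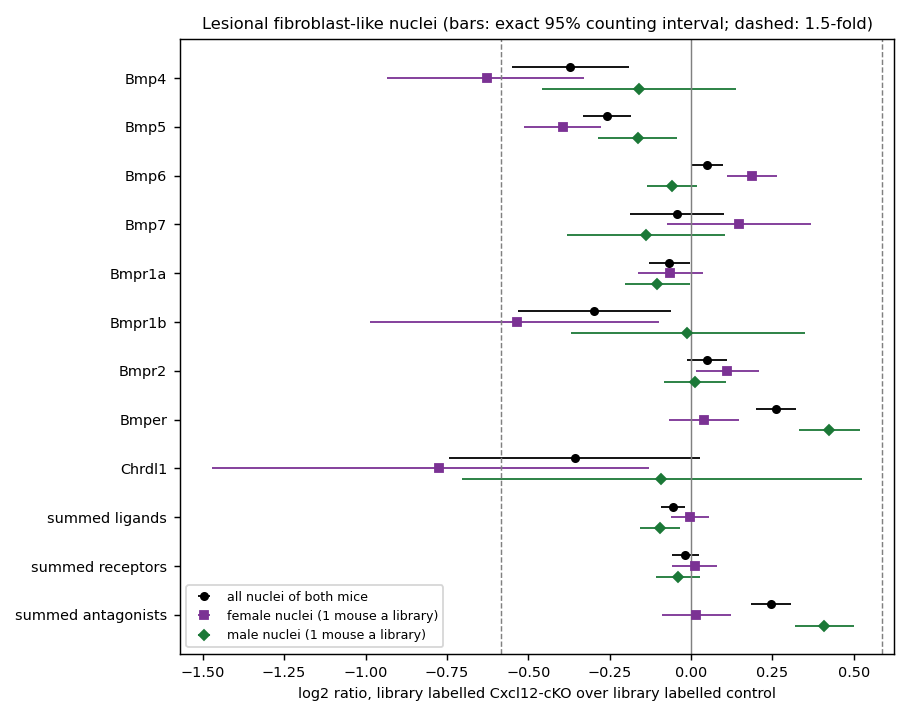
Log2 ratio of 9 members and of the summed ligands, receptors and antagonists in lesional fibroblast-like nuclei, Cxcl12-cKO over control, for all nuclei and for female and male nuclei apart, with bars for 95% counting intervals and dashed lines at 1.5-fold. No pooled value passes 1.5-fold, and Bmper differs between the sexes (0.04 in females and 0.42 in males).

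Within states the library ratios were of the same small size for most members. Bmper had a log2 ratio of 0.21 in the late-inner-like state, with −0.11 between the females and 0.45 between the males, and −0.20 in state 1. The late-inner-like state, where Bmper was highest, held more of the nuclei in the Cxcl12-cKO-labelled library. Bmp6 had 0.44 in the late-inner-like state, which rested on the females (1.67, on 73 and 311 UMIs), while the males were at −0.06. In the leptomeningeal-like state, Bmpr1b had 86 and 28 UMIs and a log2 ratio of −1.60 (−2.29 to −0.99), with −1.53 between the females and −0.84 between the males. Chrdl1 in the late-inner-like state had −0.76 (−1.16 to −0.37), with −1.30 between the females and −0.31 between the males.

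The same comparison was then made over all classes. It took each member with at least 50 UMIs in a class and region that held at least 20 nuclei of each library. Of 78 such pairs of a member and a class, 8 were past 1.5-fold, against 8.74% over the genes of all classes and regions (9399 of 107564 pairs). The 78 pairs hold 9 in lesional and 6 in parenchymal fibroblast-like nuclei, none of which passed. All 8 thus lay outside fibroblasts. Over all 78 pairs the share was near the background, which also covers fibroblast-like nuclei. Outside fibroblasts alone the share of the members was higher, since none of the fibroblast pairs passed. The share of all genes in lesional fibroblast-like nuclei, 6.03%, was also below the pooled 8.74%. The background of the other classes alone is not given here, so their share of members is not read as an excess. The unnamed nuclei and the ependymal-like nuclei, 10 and 21 in number, were left out. Bmp6 in ependymal-like nuclei had 14 and 69 UMIs and a log2 ratio of 1.05 (0.24 to 2.03).

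In osteoblast-like nuclei, of which there were 507 and 161, Bmp5 had 77 and 9 UMIs and a log2 ratio of −1.41 (−2.66 to −0.48), and Bmp6 had 56 and 6 UMIs and a log2 ratio of −1.5 (−3.11 to −0.39). Both were lower in both sexes, at −1.56 and −1.36 for Bmp5 and −2.24 and −1.05 for Bmp6 in females and males. When classes were instead set from the markers of each nucleus, these values turned to 0.26 and 0.10. The fibroblast markers in osteoblast-like nuclei summed to 8918 and 6593 CPM, and their part in these values was not tested. Bmp4 in oligodendrocyte-precursor-like nuclei had a log2 ratio of −0.62 (−1.07 to −0.18) on 95 and 81 UMIs, with −0.87 between the females and −0.12 between the males, and 1.07 when classes were set from the markers of each nucleus.

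Neurons held most of the rest. Bmp6 had a log2 ratio of −0.84 (−1.53 to −0.23) in lesional excitatory-neuron-like nuclei, on 114 and 26 UMIs, but 1.34 between the females (8 and 12 UMIs) and −0.34 between the males (27 and 4 UMIs). It turned to 0.21 without nuclei of both sexes, 0.72 after Scrublet and 0.0544 with equal weight for each nucleus. In lesional inhibitory-neuron-like nuclei Bmp6 had 1.61 (0.86 to 2.46), on 20 and 50 UMIs, with 1.47 between the females and 3.24 between the males. In parenchymal excitatory-neuron-like nuclei, Bmp5 had 0.62 (−0.03 to 1.31) on 33 and 50 UMIs, and Chrdl1 had 0.79 (0.17 to 1.46) on 34 and 58 UMIs, with −0.00 between the females and 0.66 between the males. The last was Bmpr2 in T-cell-like nuclei, at 0.60 (−0.16 to 1.38) on 29 and 33 UMIs. These 5 values rest on few transcripts.

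A receptor difference in astrocytes stayed under the threshold. Bmpr1b in lesional astrocyte-like nuclei was at 641 CPM in the control-labelled library and 463 CPM in the Cxcl12-cKO-labelled library, a log2 ratio of −0.47 (−0.58 to −0.36) on 1455 and 1163 UMIs. It was −0.18 between the females and −0.78 between the males, so that the same direction held in both sexes at unequal size. Bmper in these nuclei had −0.37 (−0.54 to −0.20). Bmpr1b in lesional excitatory-neuron-like nuclei had 0.49 (0.32 to 0.67), with 0.79 between the females and −0.40 between the males.

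Lesion and parenchyma were then compared within each library, for neurons, astrocytes and fibroblasts. In excitatory-neuron-like nuclei the ligands were higher in the lesion and the receptors differed less. Here 28.4% of genes in the control-labelled library and 30.9% in the Cxcl12-cKO-labelled library were past 1.5-fold, and of the members 2 of 7 and 5 of 8 were. Bmp6 was at 15.0 CPM in the lesion and 2.94 CPM in the parenchyma of the control-labelled library, and at 8.30 and 3.29 CPM in the Cxcl12-cKO-labelled library, log2 ratios of 2.35 (1.97 to 2.74) and 1.36 (0.67 to 1.95). These levels of Bmp6 were small beside the 495 and 513 CPM of fibroblast-like nuclei. In the control-labelled library, most of the lesional Bmp6 UMIs of this class were in nuclei that could not be assigned to 1 mouse. The regions were not compared without nuclei of both sexes. Bmp5 had log2 ratios of 2.43 (1.70 to 3.17) and 1.5 (0.36 to 2.41). The 6 fibroblast markers moved with them, at 149 and 88.1 CPM in the lesional nuclei and 31.0 and 30.3 CPM in the parenchymal nuclei, and their part in the ligand values was not tested.

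Bmpr1b was higher in lesional than parenchymal excitatory-neuron-like nuclei of both libraries, at 94.6 against 63.4 CPM and at 133 against 68.4 CPM. Its log2 ratios were 0.58 (0.46 to 0.70) and 0.96 (0.81 to 1.11), just under and past the threshold. The astrocyte markers in these nuclei summed to 549 and 596 CPM in the lesion and 462 and 446 CPM in the parenchyma. Their part in the Bmpr1b values was not tested. Bmpr1a had log2 ratios of 0.26 and 0.26 and Bmpr2 of 0.21 and 0.28. Among the antagonists, Bmper had 0.35 and 0.18. Grem1 had −0.00 and 0.81 (−0.20 to 1.61), the latter on 13 and 95 UMIs. Chrdl1 in the Cxcl12-cKO-labelled library had 0 UMIs in the lesion and 58 in the parenchyma. Set against 3 counts in the lesion, it was 1.56-fold higher in the parenchyma. The upper end of its log2 interval was −0.29. In inhibitory-neuron-like nuclei, 139 and 138 in the lesion and 500 and 545 in the parenchyma, Bmp6 was at 12 and 14.8 CPM in lesion and parenchyma of the control-labelled library and at 37.1 and 12.2 CPM in the Cxcl12-cKO-labelled library, log2 ratios of −0.28 (−1.08 to 0.39) and 1.61 (1.08 to 2.10). Bmpr1b had 0.57 (0.00 to 1.09) and −1.15 (−2.39 to −0.26), the latter on 9 lesional UMIs. Bmp5 had 3.18 (2.08 to 4.46) on 22 and 10 UMIs and −0.02 on 2 and 15 UMIs, and Bmper −0.00 and 0.00.

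In astrocyte-like nuclei the antagonists took opposite directions. Different clusters of the class were compared here, since cluster 16 held 520 of 527 and 517 of 519 lesional nuclei and cluster 17 held 29 of 37 and 38 of 45 parenchymal nuclei. The parenchyma held 37 and 45 of these nuclei, and 51.8% and 51.0% of all genes were past 1.5-fold, so the members' 5 of 7 and 5 of 6 stood against a high background. Bmper was at 263 CPM in the lesion and 59.9 CPM in the parenchyma of the control-labelled library, and at 203 and 77.8 CPM in the Cxcl12-cKO-labelled library, log2 ratios of 2.07 (1.28 to 3.14) and 1.35 (0.71 to 2.15). Chrdl1 was at 59.5 and 120 CPM, and at 67.3 and 160 CPM, log2 ratios of −1.04 (−1.67 to −0.29) and −1.26 (−1.77 to −0.69). Bmper was thus higher and Chrdl1 lower in the lesion in both libraries. Bmpr1b was at 641 and 670 CPM in the control-labelled library, a log2 ratio of −0.07 (−0.33 to 0.21), and at 463 and 804 CPM in the Cxcl12-cKO-labelled library, a log2 ratio of −0.80 (−1.02 to −0.56).

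Bmpr1a in astrocyte-like nuclei was at 398 and 261 CPM in lesion and parenchyma of the control-labelled library and at 398 and 311 CPM in the Cxcl12-cKO-labelled library, log2 ratios of 0.59 (0.19 to 1.06) and 0.35 (0.01 to 0.72). Bmpr2 had 0.13 (−0.33 to 0.67) and 0.62 (0.14 to 1.18). Bmp6 had 321 and 6 UMIs in the control-labelled library, a log2 ratio of 2.00 (0.98 to 3.57). In the Cxcl12-cKO-labelled library it had 322 UMIs in the lesion and 0 in the parenchyma, where 3 counts would be 13.0 CPM, so that Bmp6 was at least 9.90-fold higher in the lesion. The fibroblast markers summed to 864 and 337 CPM in the lesional and 147 and 90.7 CPM in the parenchymal astrocyte-like nuclei. Their part in the ligand and Bmper values was not tested. The oligodendrocyte-precursor markers were at 1259 and 929 CPM in the lesion and 27.2 and 60.5 CPM in the parenchyma. The astrocyte markers were at 5275 and 6509 CPM in the lesion and 13086 and 12625 CPM in the parenchyma.

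**Figure D4:**
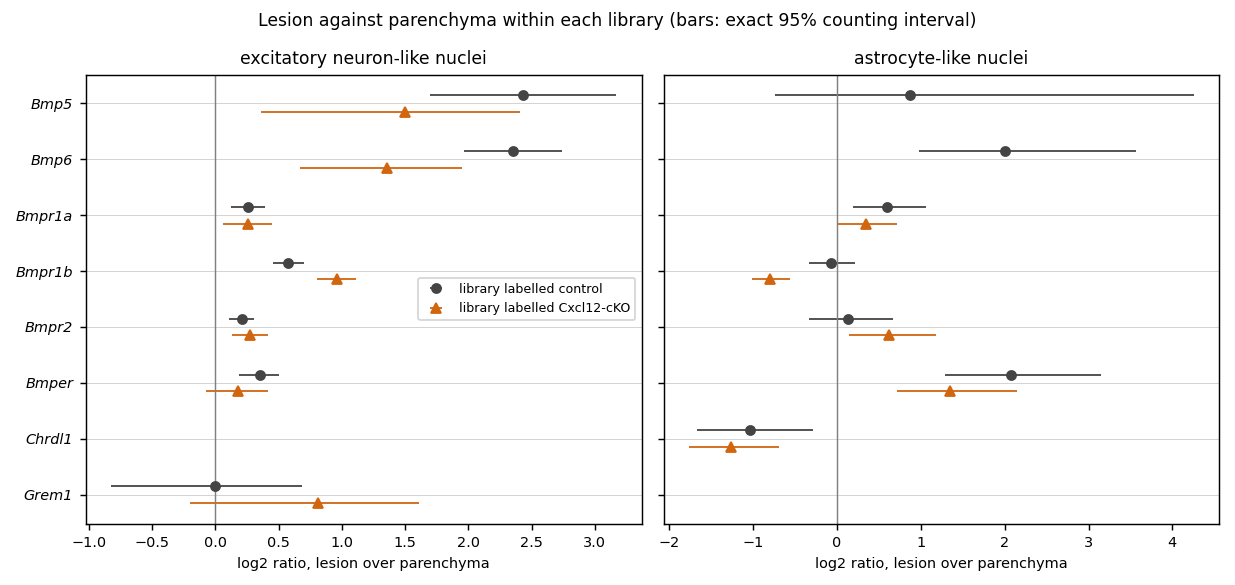
Log2 ratio of lesion over parenchyma for the 8 members with enough UMIs, in excitatory-neuron-like and astrocyte-like nuclei of both libraries, with 95% intervals from counting error. Points without a value had too few UMIs, or 0 UMIs in a region. Bmper is higher and Chrdl1 lower in lesional astrocyte-like nuclei in both libraries, and Bmp5 and Bmp6 are higher in lesional excitatory-neuron-like nuclei.

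The few fibroblast-like nuclei of the parenchyma, 51 and 50, differed from those of the lesion. Nearly all of them were in clusters 5, 6 and 11 (15, 6 and 29 nuclei, and 11, 8 and 28), while clusters 0 and 3, with 599 and 315 lesional nuclei and 749 and 661, held 0 of the parenchyma, so that different clusters of the class were compared. The 6 fibroblast markers summed to 1171 and 1149 CPM in the parenchymal nuclei, against 4048 and 3581 CPM in the lesional nuclei. What part this had in the ratios was not tested. Bmp4 was at 210 and 169 CPM in the parenchyma, log2 ratios of lesion over parenchyma of −2.34 and −2.40. Bmp6 was at 929 and 928 CPM, with ratios of −0.91 and −0.86, and Bmp5 at 357 and 413 CPM, with −0.67 and −1.14. Bmp7, on 12 and 22 parenchymal UMIs, had 0.03 and −0.93. The antagonist gene Bmper took the other direction, at 125 and 155 CPM in the parenchyma and with ratios of 1.14 and 1.10, as did the receptor gene Bmpr2, with 0.79 and 0.60. In both libraries these 3 ligands were lower and Bmper and Bmpr2 higher in lesional fibroblast-like nuclei.

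The other pathway genes were then read in lesional fibroblast-like nuclei. Of the 54 on the list, 38 had enough UMIs, of which 2 were past 1.5-fold higher and 4 lower in the Cxcl12-cKO-labelled library, against 6.03% of all genes. The median log2 ratio of the 38 was 0.05, against 0.00 over all genes. The list's 8 SMAD and SMURF genes hold transducers (Smad1, Smad4, Smad5 and Smad9), inhibitory SMADs (Smad6 and Smad7) and ubiquitin ligases that act on SMADs and receptors (Smurf1 and Smurf2). Their pooled ratios were above 0 with a median of 0.11, and none was past the threshold. By mouse, 3 of them were not higher throughout. Smad9 went from 27.8 to 25.8 CPM in females and from 25.1 to 24.9 CPM in males, Smad1 from 85.0 to 77.9 CPM in females, and Smad6 from 81.4 to 80.5 CPM in males. None of the 8 other receptors and co-receptors was past it. Of the 13 other antagonists and modulators with enough UMIs, 2 were higher and 1 lower, and of the 2 other ligands 1 was lower.

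The Id genes, which encode inhibitors of helix-loop-helix transcription factors and are direct targets of BMP signalling, had pooled log2 ratios below 0. Id3 was at 29.9 and 28.0 CPM in the female and male control mice and 19.1 and 14.7 CPM in the Cxcl12-cKO mice. These did not overlap, and the pooled log2 ratio was −0.79 (−1.03 to −0.56) on 391 and 235 UMIs. Id1 was at 8.99 and 11.0 CPM in the control mice and 7.89 and 4.78 CPM in the Cxcl12-cKO mice, with −0.73 (−1.14 to −0.33) on 134 and 84 UMIs. Both passed 1.5-fold. Id2 had −0.23 (−0.41 to −0.04) on 506 and 451 UMIs. Its levels were 37.9 and 33.5 CPM in the control mice and 31.2 and 33.0 CPM in the Cxcl12-cKO mice. Id4 had −0.31 (−1.0 to 0.36) on 43 and 36 UMIs. It was at 3.11 and 2.93 CPM in the control mice and 3.75 and 1.81 CPM in the Cxcl12-cKO mice, which overlapped. Neither gene was past the threshold. The 7 target genes with enough UMIs had a median of −0.23, with the 4 Id genes below 0 and Hey1 (0.47), Atoh8 (0.41) and Msx1 (0.02) above it. Id3 was lower in each of the 3 large states, at 27.0 and 18.3 CPM in the late-inner-like state, 35.8 and 23.1 CPM in state 1 and 24.2 and 9.13 CPM in the leptomeningeal-like state, where the log2 ratio was −1.39. In astrocyte-like nuclei of the lesion Id3 had −0.43, with −0.82 between the females and 0.02 between the males.

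Of the other genes past the threshold, Gdf10, which encodes a ligand also named BMP3B, had 111 and 55 UMIs and a log2 ratio of −1.07 (−1.57 to −0.59), lower in both sexes at −1.49 and −0.74. The secreted antagonist gene Vwc2 had −0.63 (−0.88 to −0.39) on 346 and 233 UMIs, with −1.25 between the females and −0.27 between the males. Its relative Vwc2l, named after its values were seen because it is 1 of 2 genes on the higher side, had 0.61 (0.13 to 1.10) on 61 and 97 UMIs. Fst, which encodes the activin and BMP antagonist follistatin, had 0.89 (0.09 to 1.76) on 20 and 39 UMIs, but 3.73 between the females and −0.71 between the males. The direction for Fst thus rests on 1 sex.

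**Figure D5:**
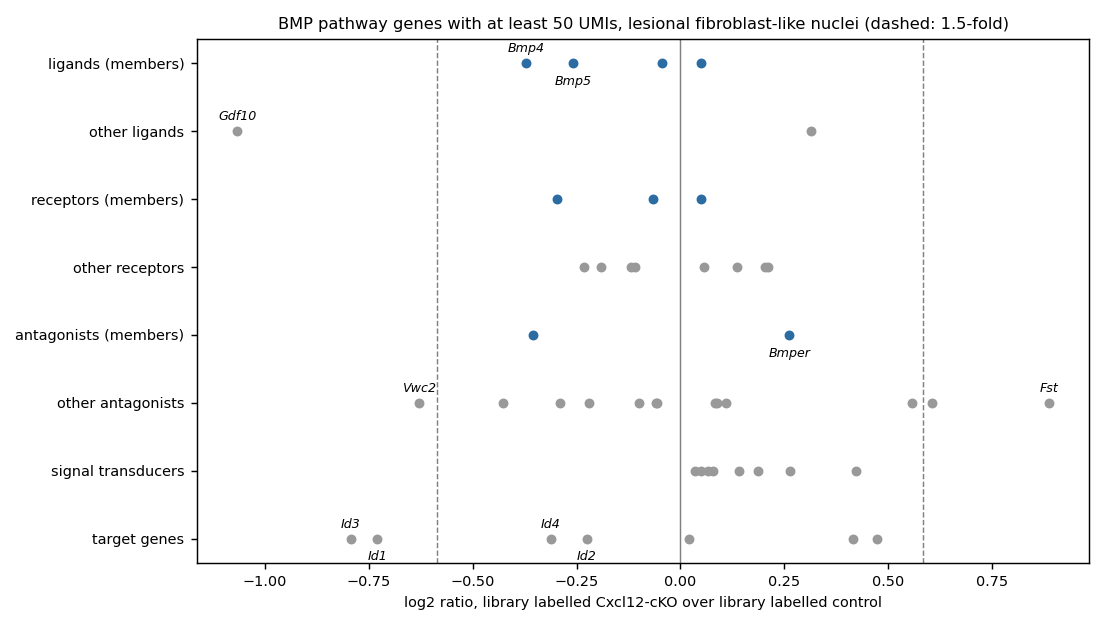
Log2 ratio of 9 members (blue) and the 38 other pathway genes with enough UMIs (grey) in lesional fibroblast-like nuclei, Cxcl12-cKO over control, 1 point a gene in rows by role, with dashed lines at 1.5-fold. Gdf10 (−1.07), Id3 (−0.79), Id1 (−0.73) and Vwc2 (−0.63) lie past the lower line, and the pooled ratios of the 8 SMAD and SMURF genes, in the row of signal transducers, lie above 0.

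Lastly, the genes whose levels followed each member most closely were sought over 32 groups of nuclei (a class, region and library each), among 13832 genes, by Pearson's r of log2(CPM + 1). The groups share libraries, and r is given as a description. Bmp5 was followed by Zic4 (0.94) and Tbx18 (0.93), and Bmpr1a by Mir99ahg (0.94) and Fgfr1 (0.92). Bmp4 was followed by Ust (0.90) and Ccser2 (0.84), Bmp6 by Anxa3 (0.88) and 2610307P16Rik (0.87), and Bmp7 by Abcd3 (0.83) and Smarce1 (0.83). Bmpr1b was followed by Aldh1l1 (0.87), an astrocyte gene, and Cpe (0.83), and Bmpr2 by Cyyr1 (0.88) and the endothelial receptor gene Acvrl1 (0.84). Bmper was followed by Sulf1 (0.89) and by another member, Bmpr1a (0.83), and Chrdl1 by Pth1r (0.78) and Ptar1 (0.76). Grem1, with 314 UMIs in all, was below the 500 UMIs required.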

How the data were processed

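Nuclei of lesion and parenchyma were captured as 1 library per genotype with 10x Genomics 3′ v3.1 chemistry and CellPlex tags. The authors ran Cell Ranger 9.0.0 on GRCm39, per the submitters' processing notes, and deposited 4 filtered matrices of raw UMI counts with no normalization. No source used here says whether intronic reads were counted. Tag counts (58.7% to 60.2% of all UMIs in the lesion and 20.9% to 22.0% in the parenchyma) were left out.

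Barcodes beyond the 2.5 percentiles of UMIs (757.2 to 36243.8), genes (584.2 to 6418.6) or mitochondrial share (at most 8.75%) were removed. Log counts of 3000 variable genes, reduced to 30 principal components, were clustered (Leiden, 20 neighbours, resolution 1, with 2000 genes and resolution 0.3 for fibroblast states). Versions were scanpy 1.11.5, numpy 2.4.6, pandas 2.3.3, scipy 1.17.1, scikit-learn 1.9.0 and Python 3.11.15. Clusters were named by a mean log2 fold of their markers of at least 1 (0.5 for states) with at least 3 markers up, limits set after the clusters had been seen. Doublets were not removed. Scrublet and nuclei with both Xist and Y-linked UMIs served as alternatives.

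UMIs were summed per class, region and library. Levels carry exact Poisson intervals, and ratios carry exact conditional binomial intervals, with 0.5 added to each sum for the point value. The method was tested on simulated counts. No p-value is given, since each genotype was 1 library. The members and lists were chosen with earlier results of these data known. Named beside the members were the 5 pathway genes with the largest ratio in lesional fibroblast-like nuclei, Id1 to Id4, and the 2 genes most like each member with at least 500 UMIs.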

Additional observations from a re-analysis of the deposited data

Results flagged for a closer look

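Several ratios of the libraries took opposite directions in female and male nuclei, each with an interval from counting error that left out 0. None of these differences between the sexes was tested, since each is 1 mouse against 1 mouse. In parenchymal fibroblast-like nuclei, Bmp6 had a log2 ratio of Cxcl12-cKO over control of −0.65 in females (82 and 46 UMIs) and 0.54 in males (106 and 76 UMIs), and the summed ligands had −0.56 and 0.51. In lesional myeloid-like nuclei, Bmp5 had −1.29 in females (65 and 46 UMIs) and 0.74 in males (31 and 59 UMIs), and Bmp6 had −0.95 (147 and 132 UMIs) and 0.74 (118 and 222 UMIs). Chrdl1 in osteoblast-like nuclei had 2.06 in females (33 and 33 UMIs) and −0.92 in males (76 and 17 UMIs).

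Bmpr1b in parenchymal inhibitory-neuron-like nuclei had −1.34 in females (61 and 30 UMIs) and 0.89 in males (42 and 69 UMIs). Within the late-inner-like state of fibroblasts, the summed antagonists had −0.16 in females (861 and 1028 UMIs) and 0.42 in males (966 and 1873 UMIs). In the leptomeningeal-like state, Bmpr2 had −0.34 in females (533 and 331 UMIs) and 0.22 in males (319 and 473 UMIs). Between regions, the summed ligands in excitatory-neuron-like nuclei had −0.75 in the lesion and 0.30 in the parenchyma, a difference that was not tested.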

How the results depend on the processing

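The processing was varied over clustering resolution, naming each nucleus from its own markers, the nucleus filter, doublet handling, equal weight for each nucleus, single sexes and the mix of states. A value stayed when it lay within the counting interval of the main value or, for a count of genes or pairs, within 1.5-fold of it. Of 107 values over the 15 main results, 64 stayed and 43 moved. Values near 0 changed sign in the summed ligands and the summed receptors, and in Bmpr1a between states (0.11 for the control-labelled library at resolution 0.6). Of 1078 values over 128 results for single genes, 942 stayed, 127 moved and 9 of values past 1.5-fold changed sign. Unless stated, the cause was not tested. No paired analysis was possible because each genotype has 1 library. In lesional fibroblast-like nuclei, the log2 ratio of the summed ligands (−0.06) was −0.00307 in females, −0.0961 in males, −0.011 without nuclei of both sexes, −0.0156 after Scrublet, −0.00832 with the state mix held, and 0.024 with osteoblast-like nuclei added, an alternative chosen after seeing the data. That of the antagonists (0.25) was 0.316 by own markers, 0.0165 in females, 0.409 in males and 0.0635 with the state mix held. The members past 1.5-fold (0) numbered 1 by own markers, with the state mix held or with osteoblast-like nuclei added (Chrdl1, at −0.92, −0.80 and −0.72), and 2 in females (Bmp4, −0.63, and Chrdl1, −0.77).

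The fibroblast share of the lesional UMIs of the 10 members (64.9% and 68.7%) was 66.4% and 70.0% at resolution 0.25, 66.1% and 69.3% at 0.5, 68.0% and 66.1% by own markers, 68.6% and 71.7% without nuclei of both sexes, 72.3% and 75.3% after Scrublet, 71.4% and 73.5% with equal weight, and 68.3% and 69.8% with osteoblast-like nuclei. It was 65.7% without a filter in the control-labelled library, 71.5% and 77.2% in males, and 63.1% in females labelled Cxcl12-cKO. The count of pairs of a member and a class past 1.5-fold, fibroblast-like nuclei included (8), was 5 at resolution 0.25, 13 by own markers and 5 after Scrublet. It was 10 without the myeloid-like cluster richest in nuclei of both sexes, also chosen after seeing the data. The receptor ratio of lesion over parenchyma in astrocyte-like nuclei (0.15 and −0.21) was 0.446 and −0.0165 at resolution 0.25, and 0.487 and 0.0464 at 0.5. State ratios at resolution 0.6 were 4.42 and 4.31 for Bmp6 and −3.90 and −5.75 for Bmper.

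By own markers, osteoblast-like Bmp5 turned to 0.26 and Bmp6 to 0.10, and precursor-like Bmp4 to 1.07. Bmp6 in lesional excitatory-neuron-like nuclei turned to 1.34 in females, 0.21 without nuclei of both sexes, 0.72 after Scrublet and 0.0544 with equal weight. Parenchymal excitatory-neuron-like Chrdl1 turned to −0.0028 in females. Bmp5 of lesion over parenchyma in control astrocyte-like nuclei turned to −0.53 after Scrublet. Depth limited what could be read from Grem1 and from parenchymal astrocyte-like nuclei.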
